A study of Mus musculus with 44 samples.

Results

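Tiles of 1 kb that were methylated in saline brain and nearly free of methylation in blood after endotoxin numbered 311 of 78276 autosomal tiles measured in blood, hippocampus and frontal cortex (0.397%). They were chosen by measured values: a mean of at least 70% methylation in the 3 saline hippocampus libraries and in the 4 saline cortex libraries, and of at most 20% in the 3 blood libraries taken 12 h after lipopolysaccharide (LPS). Each tile is a fixed window of 1000 bp (coordinates on GRCm38/mm10) with 3 or more measured cytosines in all 3 tissues. Levels in the libraries that chose the tiles are therefore given as a description only. The other blood libraries, saline, LPS 6 h and LPS 24 h, and the LPS brain libraries took no part in the choice.

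The study profiled DNA methylation by reduced representation bisulfite sequencing (RRBS), which reads the methylated share of DNA molecules at single cytosines of CpG-rich fragments. All 44 libraries came from wild type adult male C57BL/6J mice aged 8 to 12 weeks that had been put through a Gulf War Illness model. Every group, the saline controls included, had drunk water with 200 mg/L of the stress hormone corticosterone (CORT) and 0.6% ethanol for 7 days, had been injected with the acetylcholinesterase inhibitor diisopropyl fluorophosphate (DFP, 4 mg/kg) on day 8, and had received further CORT courses up to 5 weeks. On the last day the controls received saline and were sampled at 6 h, and the others received 0.5 mg/kg of LPS (bacterial endotoxin) under the skin and were sampled at 6, 12 or 24 h. Blood had 4 saline libraries and 4, 3 and 3 LPS libraries at 6, 12 and 24 h, hippocampus had 3 saline and 4, 3 and 4 LPS libraries, and cortex had 4 in each group. Saline was sampled at 6 h only, so at 24 h the time after injection differed between the groups as well as the agent. No group without CORT and DFP was analysed here.

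In mammals, methylation of CpG sites at promoters and enhancers generally goes with a silent element, and each cell lineage removes methylation from the elements it uses. Regulatory elements of leukocyte genes are thus commonly unmethylated in blood cells and methylated in neurons and glia, and tiles of this kind are widely used to tell tissues apart. Whole blood DNA comes from a mixture of nucleated cells, mainly neutrophils, lymphocytes and monocytes, whose proportions differ between mice and conditions. In bulk DNA, a different share of cells of a kind and a different methylation level within cells cannot be told apart.

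The tiles overlap 22 listed promoter windows (250 bases before to 50 after a transcription start), and 6 of them are printed because their genes act in leukocytes or, for Slc26a9, because its tile was an exception. They were picked after their values were seen, and the sequences are RefSeq's on GRCm38.p6, 5′ to 3′ on the gene's own strand. Capitals mark GAGGAA or its reverse complement TTCCTC, the PU.1 type of site among those of ETS family factors. Other ETS sites are not marked. Tnfsf14 encodes LIGHT, a TNF family cytokine of activated T cells, C5ar2 the second receptor for complement C5a, Cd48 an adhesion receptor of most leukocytes, Il12a the p35 subunit of interleukin 12, Dock2 the Rac activator of migrating leukocytes and Slc26a9 an epithelial chloride transporter.
Tnfsf14: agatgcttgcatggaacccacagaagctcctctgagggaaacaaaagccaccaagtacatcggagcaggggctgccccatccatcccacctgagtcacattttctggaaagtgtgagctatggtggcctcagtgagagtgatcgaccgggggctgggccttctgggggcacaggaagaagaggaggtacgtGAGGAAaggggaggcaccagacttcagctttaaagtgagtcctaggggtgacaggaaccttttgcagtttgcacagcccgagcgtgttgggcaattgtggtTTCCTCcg
C5ar2: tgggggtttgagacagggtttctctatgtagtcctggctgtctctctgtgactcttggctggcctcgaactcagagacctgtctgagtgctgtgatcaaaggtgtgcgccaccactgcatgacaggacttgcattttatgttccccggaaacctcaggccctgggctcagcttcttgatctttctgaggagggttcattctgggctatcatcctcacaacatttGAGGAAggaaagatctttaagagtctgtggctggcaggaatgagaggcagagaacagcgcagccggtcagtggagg
Cd48: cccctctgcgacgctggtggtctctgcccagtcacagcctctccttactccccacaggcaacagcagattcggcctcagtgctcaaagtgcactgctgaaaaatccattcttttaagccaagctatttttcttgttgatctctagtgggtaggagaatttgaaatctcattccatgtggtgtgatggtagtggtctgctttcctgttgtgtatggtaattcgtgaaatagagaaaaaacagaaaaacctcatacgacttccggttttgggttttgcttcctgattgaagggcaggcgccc
Il12a: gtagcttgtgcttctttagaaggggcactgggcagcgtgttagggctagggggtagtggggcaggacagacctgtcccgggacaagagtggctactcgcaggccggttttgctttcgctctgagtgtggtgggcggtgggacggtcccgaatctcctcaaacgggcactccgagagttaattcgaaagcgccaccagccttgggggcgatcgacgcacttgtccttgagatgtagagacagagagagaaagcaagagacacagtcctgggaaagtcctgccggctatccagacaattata
Dock2: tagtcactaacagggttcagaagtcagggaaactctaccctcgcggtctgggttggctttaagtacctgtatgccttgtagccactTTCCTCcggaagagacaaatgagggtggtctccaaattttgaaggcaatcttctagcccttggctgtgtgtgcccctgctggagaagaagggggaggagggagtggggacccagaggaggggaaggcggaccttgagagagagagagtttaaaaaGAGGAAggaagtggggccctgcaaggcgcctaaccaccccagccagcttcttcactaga
Slc26a9: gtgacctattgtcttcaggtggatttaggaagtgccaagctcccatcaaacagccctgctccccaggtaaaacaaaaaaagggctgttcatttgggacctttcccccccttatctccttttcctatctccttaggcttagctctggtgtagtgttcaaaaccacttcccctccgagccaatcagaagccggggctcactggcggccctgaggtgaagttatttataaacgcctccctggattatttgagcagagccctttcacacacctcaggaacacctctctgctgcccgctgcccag
The windows lie at chr17:57194132-57194431 on the minus strand (Tnfsf14), chr7:16242282-16242581 on the minus strand (C5ar2), chr1:171681742-171682041 on the plus strand (Cd48), chr3:68691174-68691473 on the plus strand (Il12a), chr11:34783856-34784155 on the minus strand (Dock2) and chr1:131743772-131744071 on the plus strand (Slc26a9).

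Inside the printed Tnfsf14 window, 6 cytosines averaged 48.9% in saline blood and 2.42% in LPS 6 h blood. The Il12a window held 11 measured cytosines, at 50.7% and 2.82%, and the C5ar2 window 3, at 40.9% and 8.94%. Cd48 had 2 cytosines in its window, at 61.1% and 2.63%. In contrast to these 4, the Slc26a9 window stood at 21.7% in saline and 20.8% in LPS 6 h blood over 2 cytosines. The Dock2 window held no measured cytosine, and its tile stood at 55.0% and 4.11%. Of the 22 windows, 12 held GAGGAA, the PU.1 type of ETS site, on either strand (54.5%). The share was 29.0% of 620 windows in tiles methylated in brain and LPS blood alike and 28.2% of all 31396 listed windows. The core TGTGGT of RUNX factors, on either strand, was in 8 windows (36.4%), against 19.8% and 16.7%. The KLF core CACCC was in 12 (54.5%), against 65.0% and 57.7%, and the AP-1 site TGACTCA in 2 (9.09%), against 6.13% and 5.26%. None of the 4 motifs contains another, and sites of different motifs may overlap. These are matches of letters in 22 windows and were not tested. Many of the windows, such as those of Lat, Rhoh and Cyth4, held no measured cytosine, so their own level is not known. Some windows, such as that of Cd48, lie partly outside their tile. The windows of Gm12977 and Rps6ka1 include a pair in the same tile. The windows were poor in CpG, with a median of 5 sites, against 6 in the windows of tiles methylated in both tissues and 22 in all measured windows.

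Saline blood was not open at these tiles, which goes against calling them open in blood. The median over the 311 tiles was 58.1, 58.6, 58.3 and 57.3% in the 4 saline blood libraries, a mean of 58.1% ± 0.548 (SD, n = 4). In the 4 LPS 6 h blood libraries it was 8.36, 16.9, 11.8 and 9.77%, a mean of 11.7% ± 3.72, and in the 3 LPS 24 h libraries 7.13, 10.2 and 6.71%, a mean of 8.00% ± 1.90. The libraries that chose the tiles, LPS 12 h blood, stood at 7.31, 10.3 and 10.5%. The library medians of saline and LPS blood did not overlap, and the saline libraries lay between 57.3 and 58.6%. Replicate 2 was the highest of the LPS 6 h blood libraries. The tiles are therefore called open in LPS blood here, since 15 of 311 were at or under 20% in saline blood and 34 at or above 70%.

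**Figure D1:**
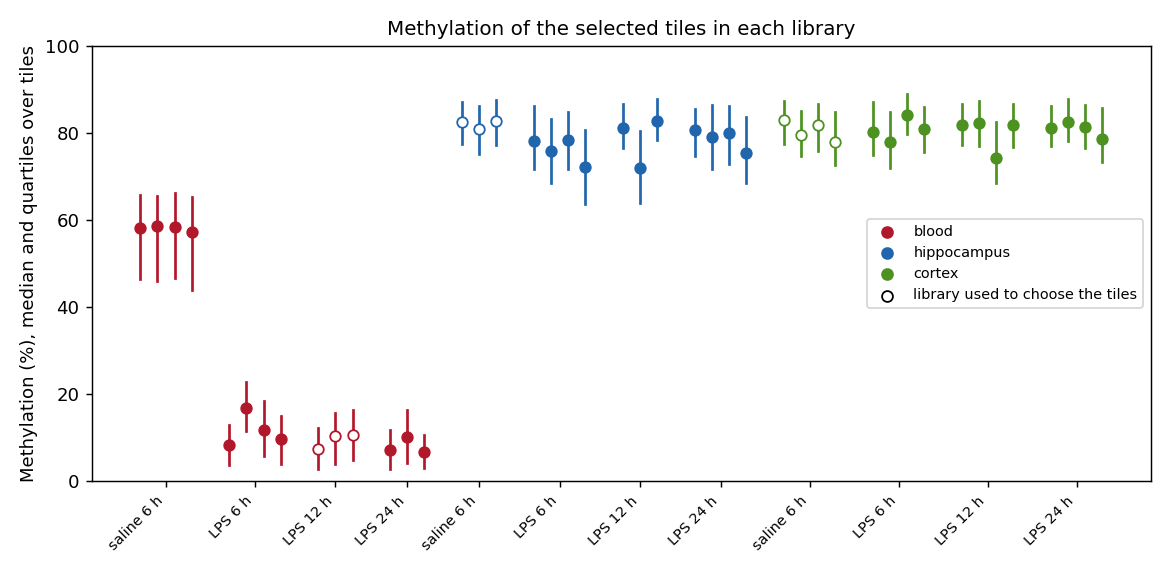
Median methylation (%, points) and quartiles (lines) over the selected tiles in each of the 44 libraries, by tissue, injection and time. Open circles are the libraries that chose the tiles. Saline blood sits between 57.3 and 58.6%, LPS blood between 6.71 and 16.9%, and the brain libraries between 71.9 and 84.1%.

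The level of saline blood lay between LPS blood and brain at most tiles. By tile mean, 85 tiles stood at 50 to 60%, 102 at 60 to 70% and 90 under 50%, with a lowest of 10.3% and a highest of 81.7%. On the way from LPS 6 h blood (0%) to LPS 6 h brain (100%), the mean of hippocampus and cortex, saline blood stood at a median of 69.9% (quartiles 55.6 and 76.9%, 270 tiles measured in all 4 groups). The median was 68.0 to 70.3% when each saline library was taken alone. It was under 30% of the way at 38 tiles and over 90% at 7. The 506 tiles with the opposite pattern, methylated in LPS 12 h blood and open in saline brain, gave 63.2% (quartiles 34.3 and 75.9%, 498 tiles). Their library medians were 35.9 to 37.0% in saline blood and 73.2 to 83.7% in LPS 6 h blood. In all 4 libraries, saline blood thus lay on the brain side of LPS blood in both directions. The rule set LPS 12 h blood low and brain high, or the reverse. Blood that differs from LPS blood at such tiles can differ mainly toward brain, so nothing is read from the direction. There is no other saline blood group here to set against the 4 libraries. The identity and purity of the saline blood DNA were not tested, and every saline blood level and LPS minus saline difference in blood rests on these 4 libraries. The share of the way is a description without a test.

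The partial level was present at single cytosines. Of 1919 cytosines in the tiles, 84.5 to 86.5% had a level between 20 and 80% in a saline blood library, and 8.08 to 8.81% were under 20%. In LPS 6 h blood, 11.8, 34.6, 21.7 and 15.0% of the same cytosines were between 20 and 80%, the 34.6% again in replicate 2. Within a tile, the levels of cytosines in saline blood had a median SD of 7.88 points.

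**Figure D2:**
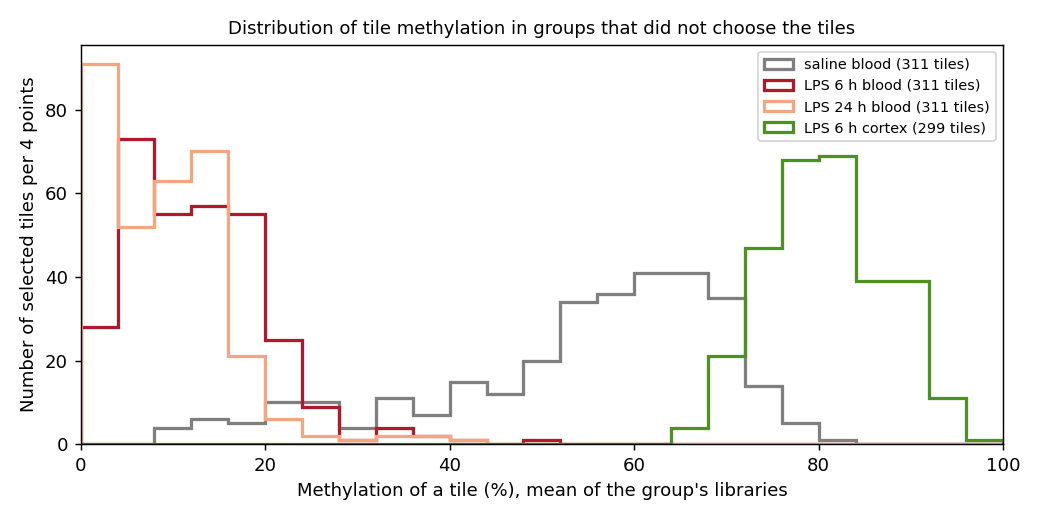
Number of selected tiles by methylation level (%, mean of a group's libraries, 4 points per step) in saline blood, LPS 6 h blood, LPS 24 h blood and LPS 6 h cortex. Saline blood peaks between the LPS blood and the cortex tiles, with 102 tiles at 60 to 70%.

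At 6 h, methylation in blood was lower after LPS than after saline at 299 of the 311 tiles and higher at 0 (limma, Benjamini-Hochberg adjusted p under 0.05 over 74713 tiles, and a difference of at least 5 points). The count of higher tiles was also 0 at an unadjusted p under 0.05, which 34.2% of all tiles passed in that direction. Among all tiles tested, 11.8% were called lower and 29.6% higher. The median difference, LPS minus saline, was -45.5 points over the tiles (quartiles -52.1 and -35.2) and 1.27 points over all tiles. All 4 LPS libraries were below all 4 saline libraries at 295 of the 311 tiles, and this was not counted over all tiles. The tiles were picked for a low level in LPS blood at 12 h, which no test at 6 or 24 h takes into account. With each library centred on its own mean over tiles, 25.4% of all tiles were called lower and 23.4% higher. After that centring, 305 of the 311 tiles were lower.

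At 24 h, 304 of the 311 tiles were lower than in saline and 0 were higher, against 11.3% and 31.1% of 71782 tiles. None was higher at an unadjusted p under 0.05 in limma, against 35.8% of all tiles. The median difference was -49.7 points, against 1.95 points over all tiles. All 3 LPS libraries were below all 4 saline libraries at 304 of the 311 tiles, likewise not counted over all tiles. With centring, 23.9% of all tiles were called lower and 24.0% higher, and 308 of the 311 tiles were lower. The 6 h and 24 h comparisons share the 4 saline libraries, so they are not independent.

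The 10 tiles with the largest falls at 6 h included tiles at or near the leukocyte genes Spi1, Arhgap45 and Plcg2. Spi1 encodes PU.1, the ETS factor that directs myeloid and B cell development. Its tile at chr2:91097000-91097999, inside the gene span, stood at 78.4, 78.9, 67.4 and 66.0% in saline blood, at 3.35, 13.4, 3.11 and 7.67% in LPS 6 h blood and at 1.55, 2.80 and 1.76% in LPS 24 h blood. The groups did not overlap, and the difference at 6 h was -65.8 points (SE 3.67, limma adjusted p = 2.62e-08). At this tile LPS 6 h cortex stood at 79.8% ± 6.96 (n = 4) and LPS 6 h hippocampus at 67.6% ± 10.4 (n = 4). The saline blood mean of 72.7% lay between them. Another Spi1 tile, at chr2:91084000-91084999, had 55.8, 70.4, 73.4 and 70.7% in saline and 10.6, 25.2, 8.60 and 7.12% in LPS 6 h blood.

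Arhgap45 encodes a GTPase-activating protein of haematopoietic cells. Its tile at chr10:80017000-80017999, which lies 0.585 kb downstream of the listed start, stood at 74.1, 71.9, 64.9 and 66.1% in saline, at 0, 9.24, 4.73 and 4.02% in LPS 6 h blood and at 1.97, 0.862 and 2.69% in LPS 24 h blood. The difference at 6 h was -64.7 points (SE 2.99, limma adjusted p = 2.2e-08), with no overlap between the groups. Plcg2 encodes phospholipase C gamma 2, which acts below B cell and Fc receptors. A tile 16.8 kb upstream of its listed start, at chr8:117481000-117481999, stood at 61.8, 66.1, 72.6 and 74.8% in saline and at 0.5, 15.6, 3.57 and 2.31% in LPS 6 h blood. The difference was -63.3 points (SE 3.78, limma adjusted p = 3.35e-08).

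The largest difference of all was at Armc9, a gene of cilia, in a tile at chr1:86191000-86191999. It stood at 77.6, 83.5, 82.6 and 74.4% in saline blood and at 5.41, 21.1, 8.79 and 6.25% in LPS 6 h blood (difference -69.1 points, SE 3.80, limma adjusted p = 2.58e-08). Klhl18, a substrate adaptor of a ubiquitin ligase, went from a saline mean of 77.9 to 16.6% in LPS 6 h blood over all its cytosines. The listed start nearest to this tile was that of Ngp, a gene of the neutrophil list, with the tile 20.7 kb downstream of it. The remaining 5 of the 10 largest falls were tiles outside the spans of protein-coding genes. They lay nearest to the starts of Gm33510, 4933433H22Rik, Mdm1, Gm15518 and Gm5535, with differences of -66.8 to -61.2 points. The listed starts were 43.7 kb downstream of the tile at Gm33510 and 5.41 kb upstream at Gm15518, so a nearest start names a place and not a target.

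The 12 tiles not called at 6 h were low in saline blood, at 12.2 to 35.7%, with a median of 17.3%, against a median of 58.7% over the 299 called tiles. Of the called tiles, 45 were under 40% in saline. The tile at the start of Slc26a9 (chr1:131744000-131744999) stood at 39.2, 34.9, 34.7 and 33.9% in saline and at 36.6, 31.1, 35.5 and 33.1% in LPS 6 h blood, which overlap (difference -1.57 points, SE 2.47, limma adjusted p = 0.647). Its LPS 12 h libraries, which chose it, read 16.5, 17.6 and 15.6%, and the 12 h table held 4 of its 7 cytosines. Over those 4 cytosines, saline blood averaged 22.9% and LPS 6 h blood 17.2%. The single tile with a higher mean after LPS at 6 h, 6.12 kb upstream of the prostaglandin D2 receptor gene Ptgdr, stood at 14.1, 9.51, 16.3 and 23.9% in saline and at 12.8, 17.2, 24.3 and 19.4% in LPS 6 h blood (limma adjusted p = 0.54).

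Of 164 measured genes on lists of blood cell and microglia genes, 19 had a selected tile inside or within 1 kb of the gene span (11.6%), against 185 of 15615 protein-coding genes (1.18%). The 19 genes came with 20 tiles, and all 20 were called lower in blood at 6 h, with a median difference of -47.3 points against -45.4 points over the other 291 tiles. By list, 1 of 13 measured neutrophil, 2 of 9 monocyte and macrophage, 2 of 16 T cell and 1 of 6 erythroid and platelet genes had one. So did 3 of 22 haematopoietic transcription factor, 2 of 18 chemokine and cytokine receptor and 9 of 47 leukocyte signalling genes. Most measured genes of each list thus had no such tile. None of 19 neuron, 9 astrocyte, 11 oligodendrocyte and 10 endothelial or pericyte genes had such a tile, nor did any of 10 microglia, 11 B cell, 3 NK cell and 14 Toll-like receptor or inflammasome genes. Tissue levels chose the tiles, and the gene lists were set with earlier results of these data known. These shares therefore describe the selection and carry no test.

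The following levels were found at transcription factors of blood lineages that had a selected tile. Runx1, required for the first blood stem cells, stood at 57.2, 53.2, 46.7 and 49.2% in saline and at 1.42, 13.1, 2.32 and 0.556% in LPS 6 h blood (difference -47.2 points, SE 3.13, limma adjusted p = 6.05e-08). Irf8, the factor of monocytes and dendritic cells, stood at 63.7, 65.1, 54.0 and 62.7% in saline and at 8.74, 13.9, 8.17 and 11.04% in LPS 6 h blood. Cebpe, which drives the late maturation of granulocytes, stood at 57.4, 66.2, 68.6 and 53.3% and at 13.1, 23.1, 24.2 and 10.6%. In all 3 the saline libraries were above all LPS libraries. The tile of Cbfa2t3, a corepressor of blood progenitors, stood at 43.2, 43.7, 44.2 and 43.0% in saline and at 4.20, 9.99, 4.35 and 3.40% in LPS 6 h blood. That of Nfe2, a factor of red cell and platelet precursors, stood at 45.5, 50.2, 49.4 and 52.6% and at 9.65, 11.1, 14.5 and 9.46%. All 5 tiles were called lower at 6 h and at 24 h.

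Among lymphocyte genes, Cd247 encodes the zeta chain of the T cell receptor and Lat the adaptor phosphorylated by ZAP70 below it. The Cd247 tile stood at 50.4, 53.9, 51.9 and 55.9% in saline, at 4.18, 10.8, 3.71 and 3.67% in LPS 6 h blood and at 1.16, 3.25 and 2.53% in LPS 24 h blood (6 h difference -47.4 points, SE 2.41, limma adjusted p = 2.26e-08). The Lat tile, at the gene start, stood at 63.2, 65.1, 56.5 and 48.0% in saline and at 2.57, 8.23, 8.19 and 5.31% in LPS 6 h blood. LPS 6 h cortex stood at 85.9% ± 2.69 for Cd247 and 76.2% ± 1.35 for Lat. Il16, a cytokine that binds CD4, stood at 56.8, 74.8, 58.5 and 65.9% in saline and at 4.74, 21.9, 4.43 and 1.75% in LPS 6 h blood.

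Genes of adhesion, migration and signalling that most leukocytes share formed the list with the most tiles, 9 of its 47 measured genes. Itgal encodes the alpha subunit of the integrin LFA-1 and Itgb2 its beta subunit. The Itgal tile stood at 49.4, 49.5, 49.7 and 54.8% in saline and at 1.73, 17.1, 5.80 and 3.50% in LPS 6 h blood (difference -43.8 points, SE 3.14, limma adjusted p = 1.01e-07). The Itgb2 tile fell from 33.8% ± 5.69 (n = 4) to 20.9% ± 3.04 (n = 4). Dock2 stood at 62.2, 51.3, 61.7 and 44.6% in saline and at 0, 7.02, 4.66 and 4.76% in LPS 6 h blood, and at 0, 1.202 and 0.9688% at 24 h. Cd48 stood at 60.9, 64.2, 69.7 and 64.5% and at 12.8, 16.1, 12.3 and 9.08%. Rac2, the haematopoietic Rac GTPase, went from 50.9% ± 1.66 to 15.2% ± 4.34, and Ptpn6, the phosphatase SHP-1, from 40.1% ± 5.92 to 4.37% ± 3.12 (n = 4 and 4). Of the receptors, Csf2rb, the common beta chain for GM-CSF, IL-3 and IL-5, stood at 59.5, 49.1, 52.6 and 56.1% in saline and at 10.9, 12.4, 9.83 and 8.35% in LPS 6 h blood. P2rx7, an ATP-gated channel of macrophages, stood at 64.6, 73.7, 71.0 and 65.4% and at 2.84, 18.4, 9.31 and 3.36%.

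**Figure D3:**
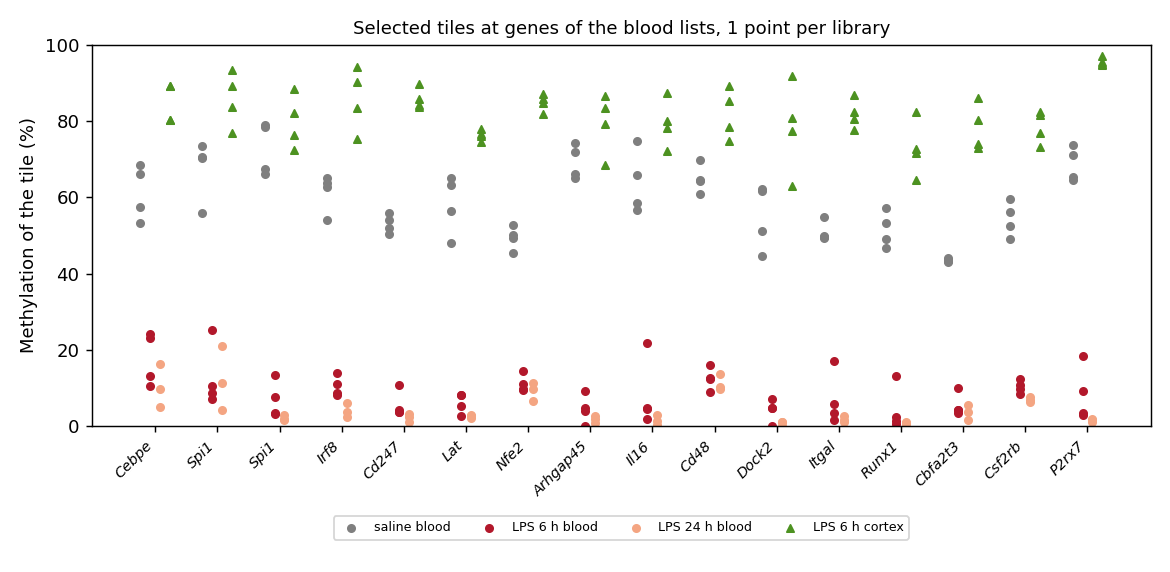
Methylation (%) of the selected tiles at genes of the blood lists in each saline blood, LPS 6 h blood, LPS 24 h blood and LPS 6 h cortex library, 1 point per library. Genes of the lists are shown as chosen by the naming rule, and at each tile the saline points lie above all LPS blood points.

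The 5 tiles with the most cytosines gave the same order of groups. Pip4k2b, a phosphatidylinositol phosphate kinase, had 24 cytosines in its tile at chr11:97718000-97718999, at 53.8, 56.1, 56.4 and 56.1% in saline and 10.3, 20.1, 17.1 and 12.2% in LPS 6 h blood. Ripor2, a regulator of polarity and migration in neutrophils and T cells, had 20, at 62.0, 61.4, 70.6 and 67.6% and at 3.26, 15.2, 7.42 and 4.28%. Dok2, an adaptor that restrains signalling in haematopoietic cells, had 18, at 70.2, 66.5, 65.7 and 69.1% and at 10.6, 21.4, 11.9 and 11.8%. Mgst2 and Yeats4, also with 18 each, had differences of -55.0 and -54.1 points. Saline and LPS libraries did not overlap in these tiles.

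Between 6 h and 24 h after LPS, 3 of 237 tiles tested in blood were lower at 24 h and 0 were higher, against 0.0603% and 0.0258% of all tiles. The other 74 tiles fell outside the 5 to 95% limit on the tile mean over both groups. A tile under 5% at 24 h could thus be tested through its 6 h level, as Irf8 was (10.5 and 4.09%). The 3 called tiles lay in Slit3, an axon guidance ligand, from 42.5 to 19.0%, in Arhgef10l, a guanine nucleotide exchange factor, from 23.3 to 2.45%, and in Fhod1, an actin-bundling formin, from 32.9 to 12.8%. Their 2 tables held partly different cytosines. Over the cytosines common to the 3 blood tables the levels were 22.8 and 17.7%, 6.87 and 2.45%, and 13.8 and 10.7%, and 0 of the 3 were called over cytosines present in both tables. Without LPS 24 h replicate 1, and likewise without replicate 3, 1 tile was called lower. At an unadjusted p under 0.05 in limma, 46 of the 237 tiles were lower (19.4%), against 1.7% of all tiles, and 1 was higher, against 2.89%. These unadjusted counts were not made without the limit on the tile mean, so nothing is read from their direction. With no limit, 311 tiles were tested, 3 were called lower and the median difference was -3.317 points. Replicate 2 of LPS 6 h blood, with a median of 16.9% against 8.36 to 11.8% in the other 3 libraries, is part of this comparison. Without that library, 212 tiles passed the limit on the tile mean and 3 were called lower. The median difference was then -1.965 points, against -3.65 points with it. Its share in the 46 was not tested. In the same way, the 5 tiles highest in LPS 24 h blood (33.0 to 40.6%) held cytosines that the 12 h table did not. The tile near Tspan8 stood at 40.02, 41.76 and 39.89% at 24 h, but at 1.19% over the 5 cytosines common to the tables. Over common cytosines, 281 of the 311 tiles were at or under 20% at 6 h and 307 at 24 h, against 268 and 297 over all cytosines.

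In LPS brain the tiles were methylated. The library medians were 72.2 to 78.3% in LPS 6 h hippocampus, 71.9 to 82.7% at 12 h and 75.4 to 80.7% at 24 h, and 77.9 to 84.1%, 74.3 to 82.3% and 78.6 to 82.6% in LPS cortex. No tile had a group mean under 50% in any brain group. Saline hippocampus, which chose the tiles, stood at 81.0 to 82.7%, and saline cortex, which also chose them, at 77.9 to 83.0%. The median difference from saline was -5.33, -3.38 and -3.13 points in hippocampus at 6, 12 and 24 h, and 0.255, -0.617 and 0.501 points in cortex. At 6 h, 255 of 278 tiles had a lower mean in LPS hippocampus. The LPS 6 h hippocampus libraries were also lower over all measured tiles, with means of 48.6 to 50.5%, against 51.9 to 52.4% in saline. Over the tiles of the opposite pattern their medians were 7.03 to 9.21%, against 10.86 to 11.35%. The share of all tiles with a lower mean was not counted. The saline values chose the tiles, so the differences at the selected tiles have no test.

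Low brain libraries were low elsewhere too. Hippocampus 12 h replicate 2, with a tile median of 71.9%, had a mean of 50.8% over all measured tiles. The other 12 h libraries had 54.9 and 56.0%. Its median over the tiles of the opposite pattern was 7.27%, against 11.6 and 12.9%. Cortex 12 h replicate 3 (tile median 74.3%) had 53.3%, against 57.0 to 57.3%, and 7.69% over the opposite tiles, against 12.4 to 13.9%. Hippocampus 6 h replicate 4 (tile median 72.2%) had 48.6%, against 49.7 to 50.5%. The part of this in the tile levels was not tested. LPS 6 h blood replicate 2 differed from its group in another way: it was higher at the selected tiles and lower at the opposite tiles (73.2%, against 80.2 to 83.7%), toward saline in both.

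Between LPS 24 h and LPS 6 h, 0 of 250 tiles tested in hippocampus were called lower (0.33% of all tiles) or higher (0.594%), and 0 of 296 in cortex were called lower (0.0838%) or higher (0.137%). The median differences were 2.23 and -0.0166 points. At an unadjusted p under 0.05 in limma, 1 tile was lower (2.6% of all tiles) and 11 of 250, or 4.4%, were higher (7.59%) in hippocampus, and 4 of 296 were lower (2.13%) and 9, or 3.04%, higher (3.05%) in cortex. In LPS 6 h blood against LPS 6 h cortex, 299 of 299 tiles were lower in blood and 0 higher, against 18.5% and 32.2% of all 67197 tiles (35.1% higher at an unadjusted p under 0.05, and 0 of the 299), with a median difference of -68.7 points. With centring 35.0% of all tiles were called lower and 27.1% higher, and the count of 299 stood. The saline cortex libraries and the LPS 12 h blood libraries chose the tiles, and nothing is read from this count.

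In hippocampus, the mean over the 3 LPS groups was lowest at Pdzd2, a PDZ domain protein, with 58.1%, and at the lipoprotein receptor gene Lrp1, with 58.4%. In cortex it was lowest near Gm46787, with 67.3%, and at Srgn, the proteoglycan of leukocyte granules, with 68.6%. Srgn was also the tile just inside the limit, at 70.01% in both saline tissues, and it stood at 48.9, 54.3, 57.1 and 53.4% in saline blood and 0.617, 11.1, 1.53 and 2.40% in LPS 6 h blood. Just outside the limit were Rinl, at 69.99% in saline cortex, Gadd45g and a Runx1 tile, at 69.9% each in saline hippocampus. In saline blood, this other Runx1 tile stood at 20.4%, Gadd45g at 27.5% and Rinl at 61.0%. At the blood limit, Dennd4b was just inside with 19.83% and a Gm31724 tile just outside with 20.01% in LPS 12 h blood.

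The tiles formed 308 separate runs, of which 3 had 2 tiles. Few had a measured neighbour, so how far the low level reaches was mostly not measured. The unselected tiles beside them had a median in LPS 6 h blood of 73.9% at 1 kb before (33 tiles, quartiles 29.2 and 85.0%) and 48.7% at 1 kb after (37 tiles, quartiles 13.2 and 86.6%), against 73.5 and 62.7% in saline blood. Some neighbours were thus low in LPS blood too, though they did not meet the rule. Pebp4, a phosphatidylethanolamine-binding protein gene, held 3 selected tiles, and B4galnt2, Gfra1, Rps6ka1, Spi1 and Tnfsf4 held 2 each. Inside the spans of protein-coding genes lay 57.2% of the tiles, against 50.5% of 33864 tiles methylated in brain and LPS blood and 63.0% of all tiles. A listed start lay within 1 kb of 39 of 308 tiles (12.7%), against 3.9% and 24.3%, where 3 tiles on a chromosome with no listed starts here are left out. The tiles held a median of 5 cytosines, as did those methylated in both, against 6 in all tiles. Levels in the tiles methylated in both were 89.5 to 89.7% in saline and 88.4 to 91.4% in LPS 6 h blood.

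**Figure D4:**
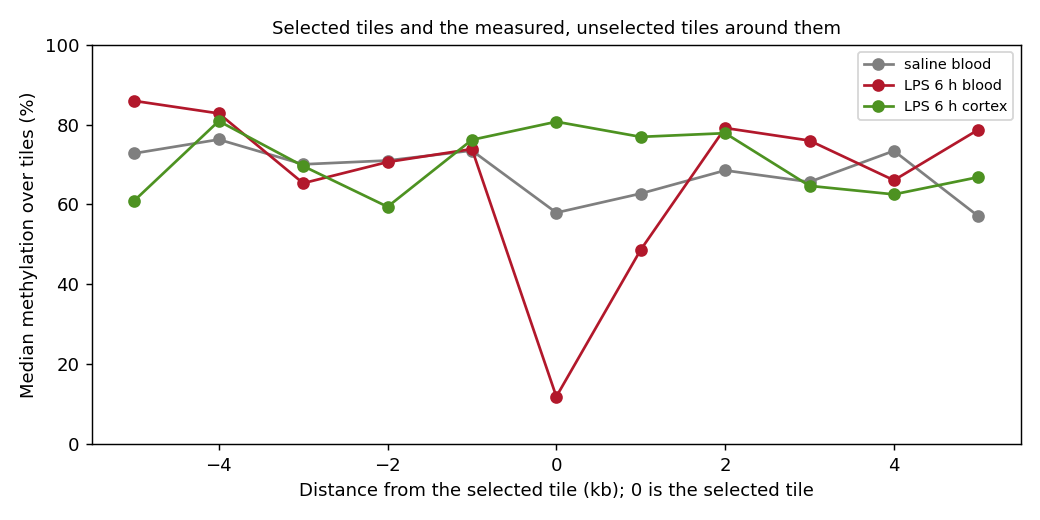
Median methylation (%) of the selected tiles (0 kb) and of the measured, unselected tiles up to 5 kb to either side, in saline blood, LPS 6 h blood and LPS 6 h cortex. LPS 6 h blood is lowest at 0 kb, where the tiles were selected, and stands at 73.9% at 1 kb before and 48.7% at 1 kb after, where selected neighbours are left out and 33 and 37 tiles were measured.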

How the data were processed

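The authors deposited percent methylation of single cytosines in 9 tables, 1 for each tissue and LPS time, with the saline libraries repeated in each. Per the submitters' processing notes, the tools were Bismark, Bowtie2, methylKit, SAMtools, Trim Galore and FastQC with GRCm38/mm10. Their roles, versions, settings and coverage minimum are not given in the sources used. The tables hold no read counts, so depth is unknown and no interval or floor can be given.

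Cytosines were averaged into tiles of 1000 bp with 3 or more cytosines. Tiles with a mean of 5 to 95% over both groups were compared with the moderated test of limma 3.58.1 (R 4.3.3; lmFit and eBayes, variance trend on, two-sided, p adjusted by Benjamini-Hochberg over all tiles of the comparison) and called at an adjusted p under 0.05 and 5 points or more. The test was checked on simulated data. Other steps used Python 3.11.15 with pandas 2.3.3. Groups came from the labels, which do not state that replicates came from different mice. The p-values therefore reflect the spread between these libraries alone, which may be technical. Gene spans and starts are RefSeq's. The spans are those of protein-coding genes only, while the listed starts include non-coding genes.

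The members and the gene lists were chosen with earlier results of these data known. Genes named in the text are the 10 largest falls in LPS 6 h blood among called tiles, the 5 smallest differences, the 5 highest in LPS 24 h blood, the 5 with most cytosines, up to 5 of each gene list, the 5 lowest in LPS hippocampus and in LPS cortex, and tiles beside each limit, not all of them described. Other named genes (the printed promoters, Rac2, Ptpn6, Itgb2, genes with several tiles, tiles called between 24 h and 6 h) were chosen after their values were seen.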

Additional observations from a re-analysis of the deposited data

Results flagged for a closer look

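Within a group of 4 libraries, 56 sets of values were searched for a library far from the other 3, and 7 were flagged, where chance flags about 1 in 20. The median over the selected tiles was 74.3% in LPS 12 h cortex replicate 3, below the other 3 libraries. LPS 6 h blood replicate 2 lay above the other 3 at the tile near 4933433H22Rik (18.2%), at Cd247 (10.8%), at Il16 (21.9%), at Runx1 (13.1%) and at Cbfa2t3 (9.99%). Saline blood replicate 4 lay above the other 3 at Itgal (54.8%). The values of one library are not independent between tiles, and no cause was tested.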

How the results depend on the processing

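Over the alternatives tried, the count of selected tiles called lower in blood stayed within 1.5 times the reported 299 at 6 h and 304 at 24 h, except with 5 or more cytosines per tile, where fewer tiles were tested: 184 of 192 at 6 h, 185 of 191 at 24 h, and 171 of 171 in LPS 6 h blood against LPS 6 h cortex. Leaving out each library in turn gave 296 to 302 at 6 h, 303 to 307 at 24 h, 299 in each case against cortex, and 1 to 4 for LPS 24 h against LPS 6 h blood. That last count was 3 as reported, 1 with tile medians and 0 over cytosines in both tables. For same-numbered libraries, the correlations of their deviations from the group means were weak, at -0.119 to 0.192. In hippocampus their mean was 0.0813, against -0.0264 for libraries of different number. For 24 h against 6 h blood it was -0.0421, against 0.0142. These values cannot settle whether equal numbers mark a pair, and the main test used no pairing. With a replicate block the counts were 300 at 6 h, 307 at 24 h and 5 for 24 h against 6 h blood. In hippocampus and cortex the count for 24 h against 6 h was 0 in both directions under every alternative tried. An alternative chosen after seeing the data, cytosines common to the 3 blood tables, gave 298 at 6 h and 305 at 24 h. The rule gave 311 tiles with a saline blood median of 57.9%. It gave 53 tiles and 61.4% with limits of 80 and 10%, 137 and 58.7% with 5 or more cytosines, 312 and 57.2% with tiles shifted by 500 bp, and 435 and 59.7% with medians. With LPS 24 h libraries, a further choice made after seeing the data, saline blood stood at 70.9% of the way to brain, and at 65.5% at the opposite tiles. The read depth is unknown, so the precision of single values rests on the spread between 3 or 4 libraries, and saline blood was sampled at 6 h only.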
